A study of Rattus norvegicus with 6 samples.

Results

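The interleukin 1 system was taken as 10 genes, and its members were the 15 probe sets of the array whose only gene symbol in the array annotation is Il1a, Il1b, Il1rn, Il1r2, Il1r1, Il1rap, Myd88, Irak4, Irak1 or Casp1. They were 15 of the 31042 probe sets that remain when control probe sets are left out of the 31099 on the array, and 10 of the 14224 genes named by a probe set with 1 symbol. Whole blood was collected from the hearts of 8-week-old male Sprague-Dawley rats, 24 h after reperfusion, and RNA of each rat was hybridised to 1 GeneChip Rat Genome array. In the MCAO group (n = 3) the origin of the left middle cerebral artery was closed for a time with a silicone-coated thread, and in the sham group (n = 3) an uncoated thread was inserted in the same way. Both groups were anaesthetised with isoflurane and had the left common and external carotid arteries ligated, so these are shared by the controls. The 3 MCAO rats had been picked from a larger operated group for a similar infarct index, and do not represent the full spread of outcomes after the operation.

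Interleukin 1 is an early signal of inflammation. Interleukin 1α and interleukin 1β bind the receptor Il1r1, which then recruits the accessory chain Il1rap, and the pair passes the signal through the adaptor Myd88 to the kinases Irak4 and Irak1 and on to NF-κB. The receptor antagonist Il1rn occupies the receptor without signaling, and the decoy receptor Il1r2 binds the ligand without a signaling tail. Interleukin 1β is made as an inactive precursor that caspase 1 cleaves. In blood, monocytes and neutrophils are known sources of interleukin 1β and of its antagonist, and neutrophils carry much of the decoy receptor.

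Of the 15 probe sets, 1 was called lower in the MCAO group (Irak1) and 1 was called higher (Il1r2) by Rank Products at a false discovery rate (FDR) under 0.05, and 13 were not called. Over all probe sets tested, 0.612% were called lower and 0.135% higher. Rank Products orders the probe sets by their difference in each of the 9 pairs of an MCAO and a sham array. It combines the 9 ranks as a product, so a probe set that is extreme in some pairs can be called without being so in all. By limma, which sets each difference against its own error, no probe set was called after Benjamini-Hochberg adjustment, among the members or among all probe sets. The unadjusted p was under 0.05 at 1 of the 15 member probe sets (Irak1) and at 3.7% of all probe sets. The values are log2 expression on the scale of DFW (Distribution Free Weighted), the summary method used by the authors, and probe sets differ greatly in how far they range on it. The median probe set ranged over 6.55e-06 log2 units across the 6 arrays, Il1b over 0.0736, the brighter Irak1 probe set over 0.00516 and 1 probe set of Il1r1 over 1.06e-06. DFW weights the probes of a set by how they vary over the arrays, so the differences were not read as fold changes of the RNA and their sizes were not compared between genes. The probes of each set also bind with their own strength, so levels of different genes were not ranked. As a description, 8 of the 15 lay above the median level of all probe sets (5.56), at mean values between 5.67 and 8.20, and 7 lay below it, between 5.25 and 5.38.

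**Figure D1:**
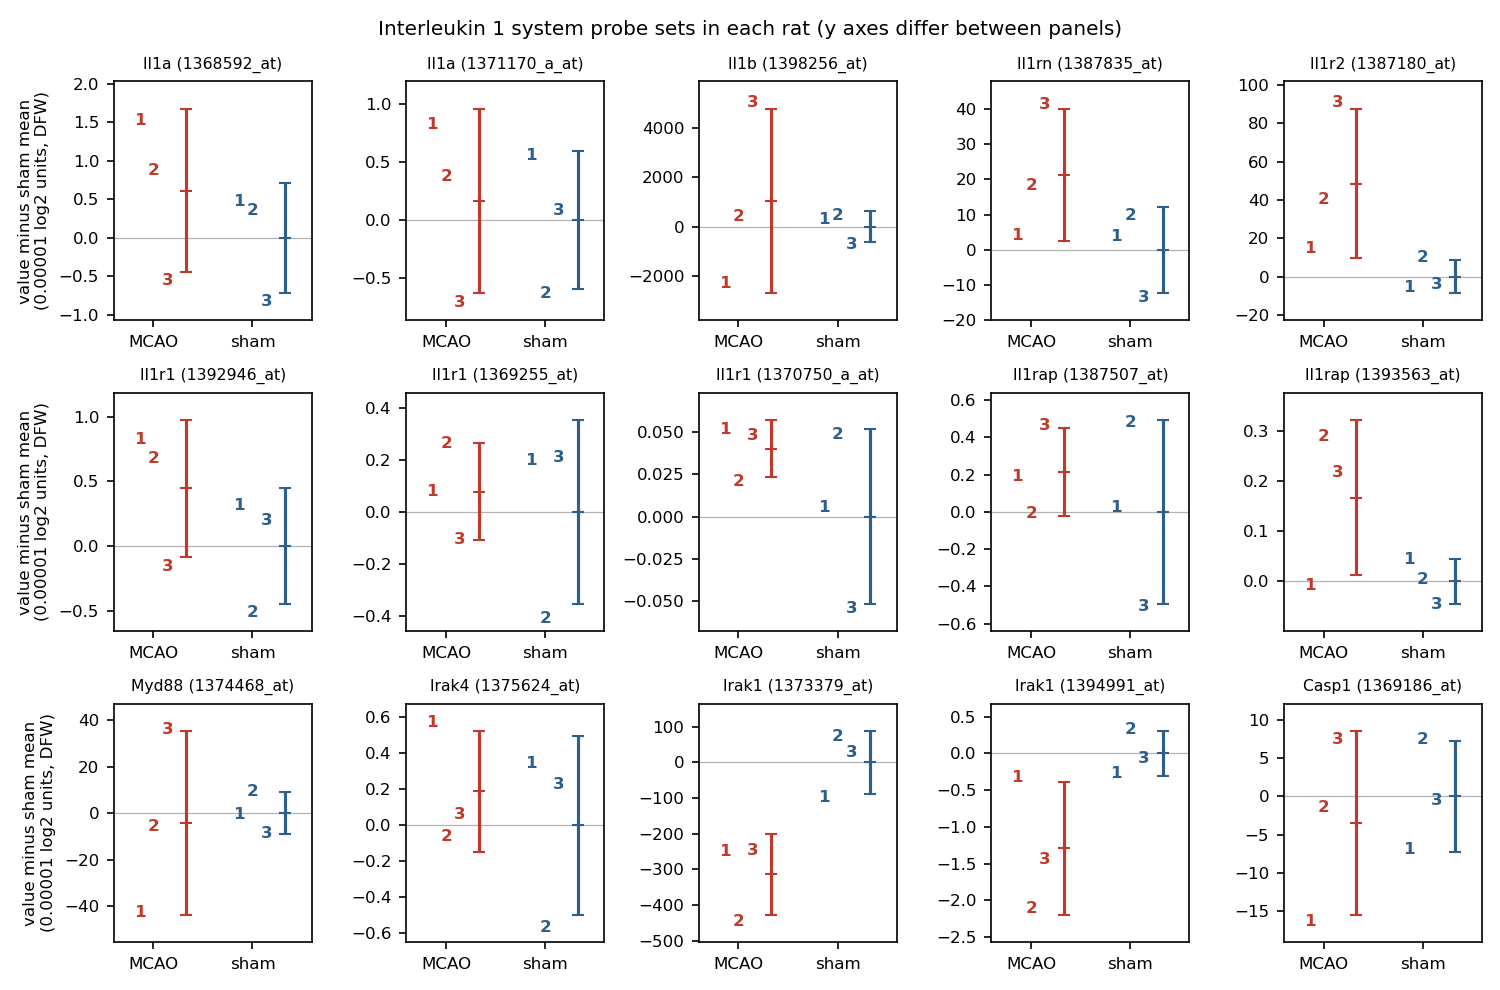
Value of each of the 15 probe sets in each rat minus the mean of the sham rats (y axis, in units of 0.00001 log2 on the DFW scale, with a different range in each panel), with each rat drawn as its number and bars for mean and SD (n = 3 each). The MCAO and sham rats were fully separated at Il1r2 and at both Irak1 probe sets, and they overlapped at the other 12 (separated in either direction at 8.41% of all probe sets).

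Il1b, which encodes interleukin 1β, was the member with the widest spread and did not differ between the groups beyond it. Its probe set (1398256_at) lay at 7.0443, 7.0715 and 7.1179 in MCAO rats 1, 2 and 3, and at 7.0704, 7.0720 and 7.0603 in sham rats 1, 2 and 3. All 3 sham rats fell between MCAO rats 1 and 3. The SD was 0.0372 among MCAO rats and 0.00636 among sham rats (n = 3 each), and the range over the 6 arrays was the 19th widest of all probe sets. The difference (MCAO minus sham) was 0.0103 (SE 0.0205, 95% interval -0.0441 to 0.0648 by limma), with an FDR of 0.167 for higher and 0.368 for lower (exact permutation p = 0.8, n = 3 each, two-sided, where 3 rats against 3 cannot give a p below 0.1). Its direction depended on MCAO rat 3, without which the difference was -0.00964 and was called lower (FDR 0.0424), whereas it was called higher without sham rat 2 (0.0126, FDR 0.0355). The difference was 0.0272 without MCAO rat 1 and was not called (FDR 0.064 for higher).

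Il1a, which encodes interleukin 1α and is the neighbor of Il1b on chromosome 3, was measured by a pair of probe sets at 5.37 and 5.33, below the median level of the array. At 1368592_at MCAO rats 1, 2 and 3 lay at 5.365792, 5.365785 and 5.365771, and sham rats 1, 2 and 3 lay at 5.365781, 5.365780 and 5.365769. The groups overlapped, with a difference of 6.12e-06 (SE 6.97e-06). At 1371170_a_at the difference was 1.64e-06 (SE 5.41e-06), and the rats overlapped as well. Neither was called (FDR 1 for higher), and their ranges over the 6 arrays were 2.35e-05 and 1.55e-05 log2 units.

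The antagonist Il1rn lay higher in the MCAO group by its mean, but the groups overlapped. Its probe set (1387835_at) lay at 6.28151, 6.28165 and 6.28188 in MCAO rats 1, 2 and 3 and at 6.28151, 6.28157 and 6.28133 in sham rats 1, 2 and 3. MCAO rats 2 and 3 were above every sham rat, and MCAO rat 1 was below sham rat 2. The difference was 0.00021 (SE 0.00012, 95% interval -0.00011 to 0.00054 by limma), with an FDR of 0.3 (exact permutation p = 0.2, n = 3 each). The difference stayed positive whichever rat was left out, between 0.00011 and 0.0003.

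Il1r2, the decoy receptor, was called higher in the MCAO group. Its probe set (1387180_at) lay at 5.74275, 5.74301 and 5.74352 in MCAO rats 1, 2 and 3 and at 5.74255, 5.74271 and 5.74257 in sham rats 1, 2 and 3. Every MCAO rat was above every sham rat, although MCAO rat 1 exceeded sham rat 2 by little. Such a separation upward was seen at 4.82% of all probe sets. The MCAO mean was 5.74309 ± 0.00039 and the sham mean 5.74261 ± 0.000085 (SD, n = 3 each), with a difference of 0.00049 (SE 0.00022, 95% interval -8.84e-05 to 0.00106 by limma) with an FDR of 0.0259 (exact permutation p = 0.1, the smallest possible). The unadjusted p by limma was 0.0803. The call was lost without MCAO rat 1 (FDR 0.234), MCAO rat 2 (0.653), MCAO rat 3 (0.278) or sham rat 3 (0.0544), and it was kept without sham rat 1 (0.0189) or sham rat 2 (0.0274). It was also lost after quantile normalization (FDR 0.25, with a difference of 0.00052), among the brighter probe sets alone (FDR 0.0753) and at an FDR threshold of 0.01. The difference itself stayed positive whichever rat was left out, from 0.00027 without MCAO rat 3 to 0.00066 without MCAO rat 1.

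The signaling receptor Il1r1 and its partner Il1rap showed no call. The 3 probe sets of Il1r1 lay at 5.67, 5.38 and 5.26, with differences of 4.44e-06 (SE 3.77e-06), 7.83e-07 (SE 2.17e-06) and 4.04e-07 (SE 3.90e-07). The groups overlapped at each of them (exact permutation p = 0.3, 0.8 and 0.3). At the brightest (1392946_at) the MCAO rats lay at 5.666473, 5.666471 and 5.666463 and the sham rats at 5.666467, 5.666459 and 5.666466. The pair of probe sets of Il1rap lay at 5.33 and 5.25, with differences of 2.14e-06 (SE 2.98e-06) and 1.66e-06 (SE 9.11e-07). Of these 5 probe sets, 4 lay below the median level of the array, and the ranges of the 5 ran from 1.06e-06 to 1.33e-05 log2 units, around the median range of all probe sets. All 5 means were higher in the MCAO group, against 53.4% of all probe sets. Il1r1 and Il1r2 are close neighbors on chromosome 9, and their data differed in that Il1r2 was called and none of the Il1r1 probe sets was. Whether the MCAO minus sham difference was larger for Il1r2 was not tested, because ranges on the DFW scale differ so much between probe sets.

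Irak1, a kinase that Irak4 activates on the receptor complex, was called lower after MCAO at the brighter of its probe sets. That probe set (1373379_at) lay at 8.1945, 8.1926 and 8.1946 in MCAO rats 1, 2 and 3 and at 8.1960, 8.1977 and 8.1973 in sham rats 1, 2 and 3. Every MCAO rat was below every sham rat, a separation seen downward at 3.6% of all probe sets. The MCAO mean was 8.1939 ± 0.0011 and the sham mean 8.1970 ± 0.00088 (SD, n = 3 each), with a difference of -0.0031 (SE 0.00078, 95% interval -0.00521 to -0.00107 by limma) with an FDR of 0.00594 (exact permutation p = 0.1, the smallest possible). Its adjusted p by limma was 1, with an unadjusted p of 0.0124.

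The second Irak1 probe set (1394991_at) had the same direction and the same separation at a far smaller size. It lay at 5.977788, 5.977770 and 5.977777 in MCAO rats 1, 2 and 3 and at 5.977788, 5.977794 and 5.977790 in sham rats 1, 2 and 3. MCAO rat 1 (5.9777877) and sham rat 1 (5.9777883) nearly met. The difference was -1.29e-05 (SE 5.18e-06) and was not called (FDR 0.728), and it turned to 1.68e-05 with arrays centred on the median. The call at the brighter probe set was kept without MCAO rat 1, 2 or 3 (FDR 0.00108, 0.00865 and 0.00585) and was lost without sham rat 1 (0.0795), sham rat 2 (0.14) or sham rat 3 (0.123), while its difference stayed between -0.00363 and -0.00248. After quantile normalization the difference shrank to -0.00048 and was not called (FDR 0.951).

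Irak4, the kinase next to the adaptor, was not called. Its probe set (1375624_at) lay at 5.30, with a difference of 1.88e-06 (SE 3.27e-06, exact permutation p = 0.7, n = 3 each). Myd88, the adaptor, lay at 6.49670, 6.49707 and 6.49749 in MCAO rats 1, 2 and 3 and at 6.49712, 6.49722 and 6.49704 in sham rats 1, 2 and 3 (1374468_at). As for Il1b, all 3 sham rats fell between MCAO rats 1 and 3. The difference of Myd88 was -4.22e-05 (SE 0.00022, exact permutation p = 0.9, n = 3 each), and it turned to 0.00015 without MCAO rat 1. Casp1, the protease that matures interleukin 1β, lay at 5.98655, 5.98670 and 5.98679 in MCAO rats 1, 2 and 3 and at 5.98664, 5.98679 and 5.98671 in sham rats 1, 2 and 3 (1369186_at). Sham rat 2 was the highest and MCAO rat 1 the lowest, and the difference was -3.47e-05 (SE 7.62e-05, exact permutation p = 0.6, n = 3 each).

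**Figure D2:**
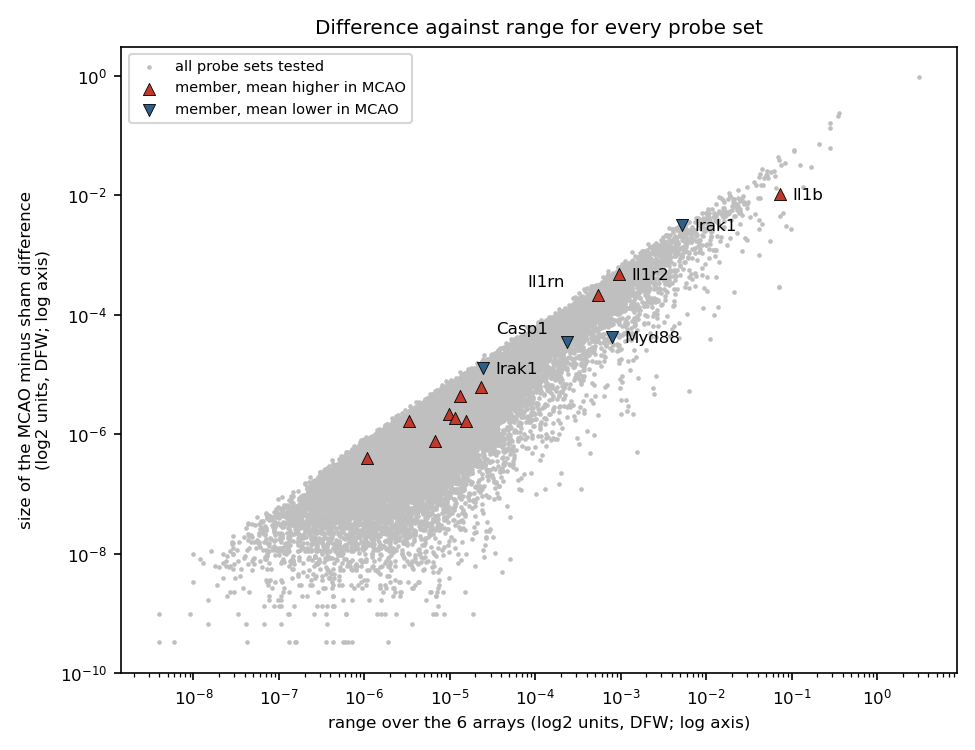
Size of the MCAO minus sham difference (y axis, log2 units on the DFW scale, log axis) against the range over the 6 arrays (x axis, log2 units, log axis) for each probe set tested (gray; points with a difference under 1e-10 are not drawn) and for the 15 members (triangles, pointing up where the mean was higher in the MCAO group). The ranges of the members run from 1.06e-06 to 0.0736, and the brighter Irak1 probe set and Il1r2 lie near the upper edge of the cloud while Il1b, Myd88 and Casp1 lie inside it.

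The members differed widely in their range over the 6 arrays, and how far DFW sets these ranges was not tested. Of the 15, 6 had a range over 0.0001 log2 units (Il1b, the brighter Irak1 probe set, Il1r2, Myd88, Il1rn and Casp1), against 10.7% of all probe sets. The other 9 were the probe sets of Il1a, Il1r1, Il1rap and Irak4 and the dimmer one of Irak1. Of the 1000 probe sets with the widest range, 22.2% were called by Rank Products, against 0.747% of all, and they held 222 of the 232 called probe sets. Among the members, Il1b and the brighter Irak1 probe set were in those 1000, and Il1r2 was 1110th.

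The 3 MCAO rats differed from each other at several members in the same way, which was noticed after the values were seen. At Il1b, Il1rn, Il1r2, Myd88 and Casp1, MCAO rat 3 had the highest and MCAO rat 1 the lowest value of its group. Among the 3310 probe sets with a range over 0.0001, 53.5% showed this order, so it is not particular to the interleukin 1 system. The SD was larger in the MCAO group than in the sham group at 11 of the 15 probe sets, against 56.8% of all. Some of the 15 measure the same gene. The SD was 5.85 times larger at Il1b, 4.58 times at Il1r2 and 4.35 times at Myd88. Over all probe sets, the array of sham rat 3 stood apart. Its Pearson correlations with the other arrays were 0.999667 to 0.999843, against 0.999960 or more for every pair without it.

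The order of the MCAO rats was also seen at neutrophil markers. Of 14 listed neutrophil markers, 9 had a probe set (not Ngp, Ltf, Elane, Mpo or Cd177), and MCAO rat 3 was highest and MCAO rat 1 lowest within the group at 7 of the 9. The same order held at 2 of 3 B cell, 3 of 6 NK cell and 2 of 8 T cell markers, and at the 53.5% of wide-ranging probe sets given above. The neutrophil markers' mean log2 level was 6.430, 6.442 and 6.466 in MCAO rats 1, 2 and 3, against 6.441 to 6.446 in the sham rats, and 4 of the 9 (S100a8, S100a9, Csf3r and Lrg1) ranged over more than 0.001. S100a9, a subunit of calprotectin, lay at 9.025, 9.062 and 9.124 in MCAO rats 1, 2 and 3 and at 9.066, 9.078 and 9.058 in sham rats 1, 2 and 3. Csf3r, the receptor for granulocyte colony-stimulating factor, lay at 6.360, 6.377 and 6.426 in the MCAO rats and at 6.376, 6.373 and 6.374 in the sham rats. As for Il1b, the 3 sham rats lay between MCAO rats 1 and 3 for both genes. Csf3r was called higher (FDR 0.0305), and S100a9 and Lrg1 were called lower (FDR 0.0395 and 0.0298), although the mean of both was higher in the MCAO group (by 0.0027 and 0.0050). Of 10 listed monocyte markers, 9 had a probe set and none was called, and the order of the MCAO rats was the same at 5 of them, with a mean log2 level of 6.367, 6.371 and 6.376 in MCAO rats 1, 2 and 3 and 6.370 to 6.374 in the sham rats. This mean was carried by Lyz2, without which it lay at 5.86209, 5.86216 and 5.86266 in MCAO rats 1, 2 and 3 and between 5.86223 and 5.86272 in the sham rats. The part of these cells in the values of Il1b, Il1rn and Il1r2 was not tested. In whole blood, fewer cells of a type and less RNA per cell cannot be told apart.

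**Figure D3:**
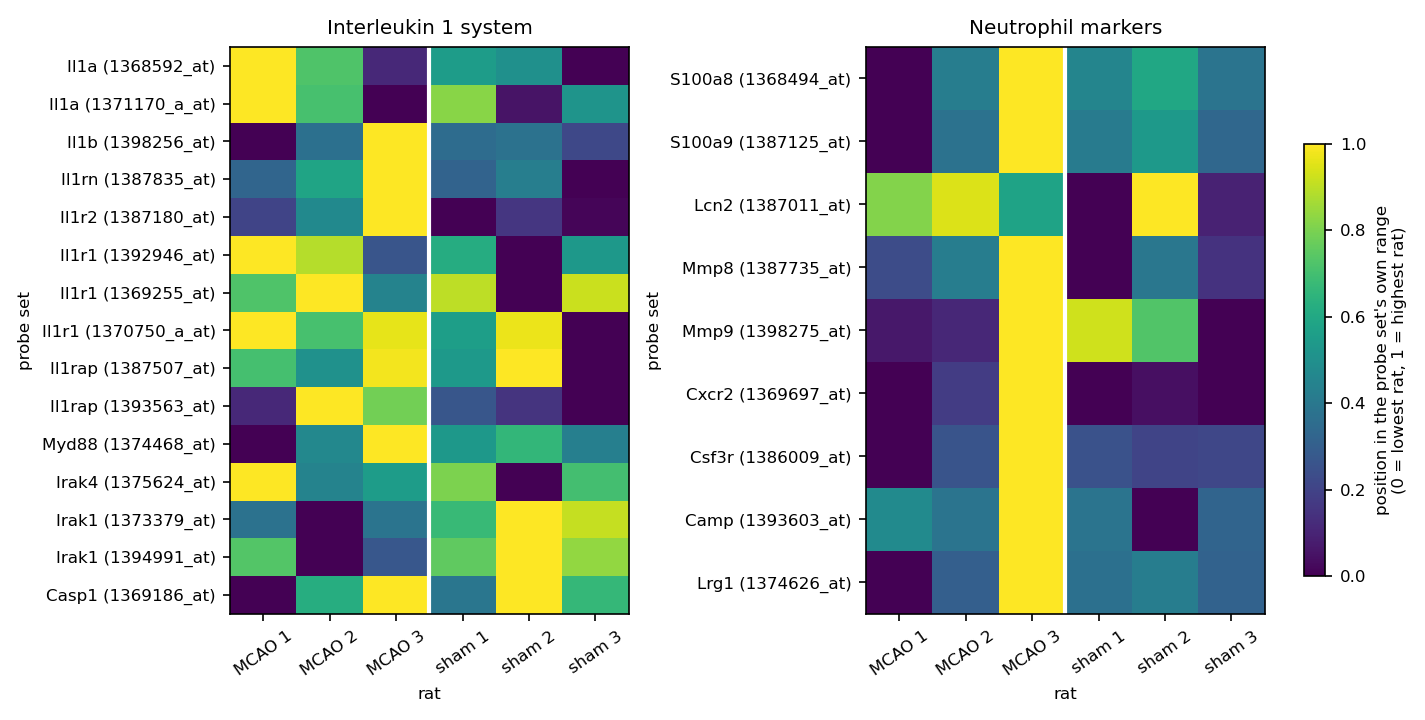
Position of each rat (columns) within the range of each probe set (rows), from 0 for the lowest to 1 for the highest of the 6 rats, for the 15 interleukin 1 probe sets and the 9 measured neutrophil markers. MCAO rat 3 is near the top and MCAO rat 1 near the bottom at Il1b, Myd88 and Casp1 and at S100a8, S100a9, Csf3r and Lrg1, whereas at Il1r2 the sham rats are lowest and at Irak1 the MCAO rats are.

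Promoter sequences are shown for Il1b and Il1rn, a ligand and the antagonist of the same receptor, and for Irak1, the called member that has an entry. RefSeq gave a promoter for 9 of the 10 member genes, and Il1r2 had no entry. Each sequence holds the 250 bases before the annotated start, 5′ to 3′, and capitals mark matches to the motifs searched on both strands, which were the NF-κB consensus, TTNNGCAA (of the C/EBP type), GAGGAA (an ETS core), TGANTCA (AP-1) and TATAAA (the TATA box).
Il1b (GRCr8 chr3:137036582-137036831, minus strand): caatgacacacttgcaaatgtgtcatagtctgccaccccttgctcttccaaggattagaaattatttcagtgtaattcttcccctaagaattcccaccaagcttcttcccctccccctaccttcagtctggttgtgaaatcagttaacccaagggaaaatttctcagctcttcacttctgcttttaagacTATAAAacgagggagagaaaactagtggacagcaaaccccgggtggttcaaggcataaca
Il1rn (GRCr8 chr3:27520072-27520321, plus strand): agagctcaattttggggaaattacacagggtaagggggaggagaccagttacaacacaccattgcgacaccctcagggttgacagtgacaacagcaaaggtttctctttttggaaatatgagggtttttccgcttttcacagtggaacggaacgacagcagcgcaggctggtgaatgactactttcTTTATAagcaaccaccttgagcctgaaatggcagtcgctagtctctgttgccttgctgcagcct
Irak1 (GRCr8 chrX:156929826-156930075, minus strand): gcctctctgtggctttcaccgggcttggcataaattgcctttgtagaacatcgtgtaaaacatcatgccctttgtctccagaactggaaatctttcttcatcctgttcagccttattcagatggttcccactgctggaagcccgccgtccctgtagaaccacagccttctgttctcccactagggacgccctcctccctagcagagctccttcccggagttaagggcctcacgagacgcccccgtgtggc
TATAAA was found before Il1a, Il1b and Il1rn, that is in 3 of the 9 promoters, against 12.9% of 33469 promoters. It began 60 bases before the start of Il1b, and its reverse complement began 64 bases before that of Il1rn. Irak1 held none of the motifs in this window. The NF-κB consensus was found before Il1r1 and Il1rap (3.54% of all promoters), GAGGAA before Il1a, Irak4 and Casp1 (23.3%), TGANTCA before Il1a and Myd88 (6.34%), and TTNNGCAA before none (9.22%). No match overlapped another. A match describes these letters only and is no measured binding site.

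Of the wider pathway, 1 of 78 measured genes was called, and none was called higher, where 0.612% of all probe sets were called lower and 0.135% higher. The called gene was Sod2, the mitochondrial superoxide dismutase, among 24 targets of interleukin 1. Sod2 lay at 8.406, 8.402 and 8.413 in MCAO rats 1, 2 and 3 and at 8.404, 8.413 and 8.418 in sham rats 1, 2 and 3, a difference of -0.0043 (SE 0.0048, FDR 0.0494). The groups overlapped at Sod2, and the call was lost without MCAO rat 2 or any one of the sham rats. Of the same 24 targets, Il6 and Cxcl3 were separated upward and Zc3h12a, an RNase that limits inflammatory mRNAs, downward, with differences of 1.90e-06, 1.38e-05 and -2.39e-06. Il6 and Zc3h12a lay below the median level of the array, at 5.18 and 5.41. Centring arrays on the median moved every difference upward by the same amount, as from -1.29e-05 to 1.68e-05 at the dimmer Irak1 probe set. That change is larger than each of these differences, so the direction at Zc3h12a depends on it. Whether the separations hold after centring was not tested. Ccl3, a chemokine, had a difference of -6.49e-05 (SE 3.62e-05) and overlapping groups. Tnf, Ptgs2 and Ccl2 were not called, and the median difference of the list was 6.65e-07, against 6.72e-08 over all probe sets. Both medians are far smaller than the change that centring makes.

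None of 8 other interleukin 1 family ligands and receptors was called. The mean was higher in the MCAO group at 7 of the 8, against 53.4% of all probe sets. The differences were 4.33e-06 at Il36rn, 3.08e-06 at Il1rl1, the receptor for interleukin 33, and 2.25e-06 at Il36b, and the groups overlapped at each. These differences are smaller than the change that centring the arrays makes. None of 10 inflammasome genes was called. Txnip had a difference of -0.0019 (SE 0.0056), Nek7 of -0.00076 (SE 0.00087) and Pycard, the adaptor that brings caspase 1 to the inflammasome, of -0.00011 (SE 6.86e-05). Mefv, which encodes pyrin, was the 1 inflammasome gene whose groups were separated, with all 3 MCAO rats higher and a difference of 9.50e-06. The difference of Mefv is also smaller than the change that centring makes.

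None of 17 genes of Myd88, Irak and Traf6 signaling was called. Irak3, a kinase relative that restrains the pathway, lay at 5.64155, 5.64164 and 5.64173 in MCAO rats 1, 2 and 3 and at 5.64171, 5.64189 and 5.64184 in sham rats 1, 2 and 3. Only MCAO rat 3 reached into the range of the sham rats, and the difference was -0.00017 (SE 6.88e-05, FDR 0.283). Otud5 had -0.00024 (SE 0.00032) and Sqstm1 had 7.79e-05 (SE 0.00019). Tollip, an adaptor that restrains Irak1, had every MCAO rat above every sham rat, with a difference of 4.30e-06 (SE 1.86e-06), again smaller than the change with centring. None of 19 genes of the NF-κB and MAPK arm was called. Map2k3, a kinase that activates p38, had every MCAO rat below every sham rat with a difference of -0.00046 (SE 0.00017, FDR 0.0702), Nfkbib, an inhibitor of NF-κB, had -0.00046 (SE 0.00032) and Chuk, an IκB kinase, had -0.00028 (SE 0.0002). Over the 78 genes the mean was higher in the MCAO group at 44 and lower at 34, and the groups were separated upward at 4 and downward at 2. Over all probe sets the mean was higher at 53.4%, and 4.82% were separated upward and 3.6% downward, so these counts lie near the background.

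**Figure D4:**
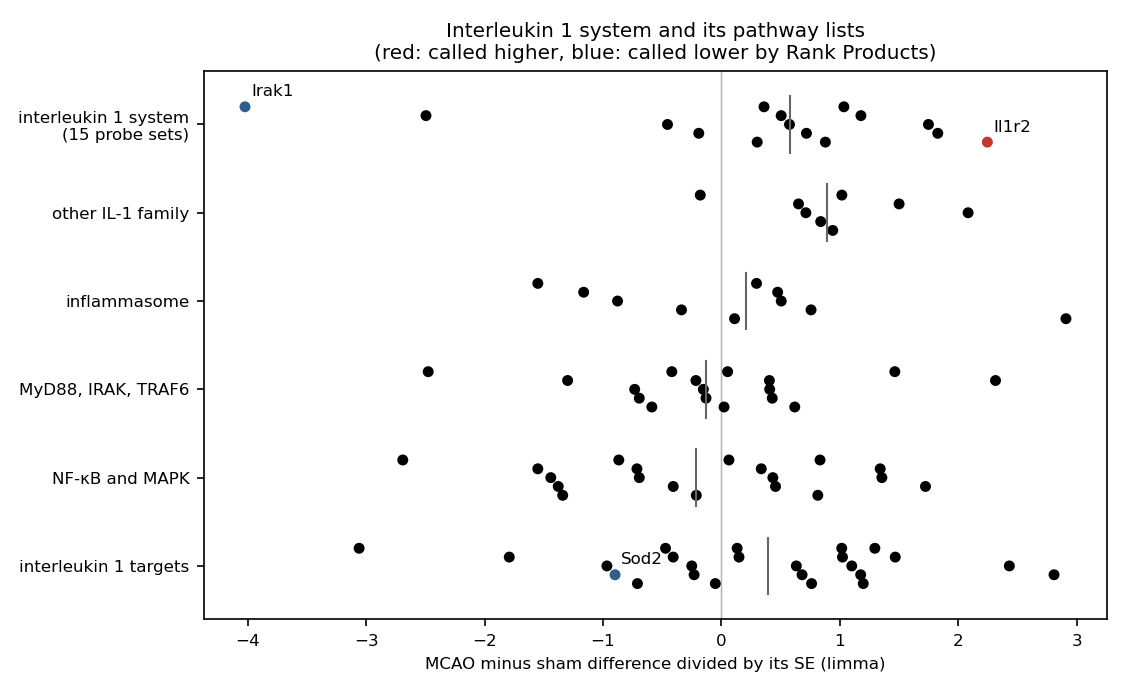
MCAO minus sham difference divided by its SE from limma (x axis, no unit) for the 15 interleukin 1 probe sets and for the genes of the 5 pathway lists (rows, 1 probe set a gene; points are shifted vertically for legibility), where the vertical bar in each row is the median. The brighter Irak1 probe set stands farthest to the left at -4.02 and Il1r2 lies at 2.25, and Sod2 is the 1 called gene of the lists.

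Markers of blood and of neighboring tissue are given as a description, since levels of different probes were not ranked and the values give no background signal. Hbb, which encodes β-globin, lay at 14.2 and Alas2 at 12.99, Pf4 of platelets lay at 11.5 and Lyz2 of myeloid cells at 10.4, and 5 measured markers of heart muscle lay between 5.31 and 5.89. Lymphocyte markers were lower in the MCAO group by their means, at 3 of 3 B cell, 8 of 8 T cell and 6 of 6 NK cell genes, with Ms4a1, Cr2, Cd3g and Prf1 called lower. Over all probe sets 46.6% had a lower mean and 0.612% were called lower. The part of lymphocytes in the value of Irak1 was not tested. None of the 6 platelet, 6 erythroid, 5 heart muscle or 4 endothelial markers was called. Precision is limited throughout by having 6 arrays.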

How the data were processed

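Whole-blood mRNA of 3 MCAO and 3 sham rats was measured on 6 arrays. The log2 values deposited by the authors had been normalized over the arrays together with DFW in R, 1 value per probe set and array, without a stated filter. No log base is stated with them, and log2 was taken from their range (4.93 to 14.43). Nothing in the values gives a background signal.

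Control probe sets (57) were left out. Rank Products, the method of the study, was written in Python 3.11.15 (numpy 2.4.6) for 9 unpaired differences and 100 permutations of the probe sets within arrays, with an FDR threshold of 0.05 over 31042 probe sets. limma 3.58.1 in R 4.3.3 gave differences, SEs, intervals and Benjamini-Hochberg adjusted p-values over the same probe sets. Exact permutation tests were two-sided. Both methods were run on simulated data with planted changes. The simulation for Rank Products gave all probe sets the same noise. It therefore cannot show how the method performs on ranges as unequal as these. The simulation for limma planted shifts of many SDs at each changed probe set. It therefore cannot show whether limma finds smaller differences with 3 rats a group. Symbols came from the array annotation (20837 probe sets with 1 symbol, 425 with several and 9780 with none, of which only the first were named), and all 10 member genes matched RefSeq GRCr8 by gene ID, which also gave the promoters.

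The members, the pathway lists and the markers were chosen with earlier results of these data known. Named were every member probe set, and from each pathway list the called genes and the 3 with the largest difference. Markers were named where they were called. Tnf, Ptgs2, Ccl2, Hbb, Alas2, Pf4, Lyz2, S100a8 and the pathway genes whose groups were separated were named beyond this rule. Each list gene stood with its brightest probe set, and lists were described by counts and medians. The limma and exact p-values set a difference against the spread between these rats. The Rank Products FDR comes instead from permuting probe sets within arrays.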

Additional observations from a re-analysis of the deposited data

How the results depend on the processing

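By limma in place of Rank Products no member probe set was called in either direction (0 lower and 0 higher, with 1 of 15 at an unadjusted p under 0.05). This held with an intensity trend and with blocks of same-numbered rats, each of 1 MCAO and 1 sham rat. It also held after quantile normalization, with arrays centred on the median and without each rat in turn. By Rank Products the count of 1 lower and 1 higher became 0 and 0 after quantile normalization, the higher count became 0 at an FDR of 0.01 and among the brighter 15521 probe sets, and each count ran from 0 to 2 when 1 rat was left out. Both counts stayed at 1 with control probe sets kept, with rank sums and with arrays centred on the median, which cannot change the ranks. The count of 1 lower gene in the pathway lists became 0 at an FDR of 0.01 and after quantile normalization, ran from 0 to 2 without 1 rat, and the count of 0 higher genes stayed at 0 in each of these. Directions turned after quantile normalization at 1369255_at of Il1r1 (-6.05e-06) and 1387507_at of Il1rap (-4.71e-06), and with centring at the dimmer Irak1 probe set (1.68e-05). Centring moved all differences upward by the same amount, which is large beside the smallest of them. Without a change of sign, it took 1370750_a_at of Il1r1 from 4.04e-07 to 3.02e-05 and Irak4 from 1.88e-06 to 3.17e-05. When 1 rat was left out, differences of both signs were seen at 1371170_a_at of Il1a (-1.69e-06 to 6.04e-06), Il1b (-0.00964 to 0.0272), 1369255_at of Il1r1 (-1.25e-06 to 1.83e-06), 1387507_at of Il1rap (-3.84e-07 to 4.55e-06), Myd88 (-0.00024 to 0.00015), Irak4 (-9.74e-07 to 3.60e-06) and Casp1 (-8.92e-05 to 2.97e-05). In the main setting, same-numbered rats were not treated as pairs. Their deviations from the group means, scaled to unit SD, correlated at 0.211, 0.04 and 0.0661, against -0.232 to 0.166 for differently numbered rats. Unscaled, the correlations of same-numbered rats were -0.419, -0.851 and -0.899. With the replicate block, Rank Products left 1 lower and 1 higher call. The cause of these changes was not tested.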
